A study of Mus musculus with 6 samples.

Results

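The floor plate and p3 domain genes described here are 9 genes whose products mark the neural tube ventral to the motor neuron domain, namely Nkx2-2, Nkx2-9, Sim1, Foxa1, Foxa2, Shh, Ferd3l, Ntn1 and Lmx1b. The rule lists them by name and uses no measured value, although earlier results of these data were known when the list was made. Each matched 1 Ensembl identifier among the 55400 genes of the table. Expression was measured by sequencing polyadenylated RNA from motor neuron progenitors on day 4 of differentiation, which had been grown from embryonic stem cells of C57BL/6 mice. The 6 libraries form a control group of 3 and a Setd5sh group of 3, and all 6 carry the genotype label WT. Both groups were given retinoic acid at 1 µM, which caudalises neural cells, and the hedgehog agonist SAG at 0.5 µM, which ventralises them, from day 2, with 1 µg/mL doxycycline added 36 h before the harvest. The name Setd5sh reads as a short hairpin RNA directed at Setd5, though the labels do not spell this out, and what hairpin, if any, the control cells carried was not stated in the sources used here. The labels also do not say whether replicates were separate cultures. The p-values therefore describe the spread among these libraries alone, and that spread may be technical.

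In the embryo, Sonic hedgehog (encoded by Shh) is secreted by the notochord and then by the floor plate, and its gradient orders the ventral neural tube. The floor plate lies at the midline and depends on the forkhead factor Foxa2. The p3 domain lies beside it, is marked by the homeodomain factors Nkx2-2 and Nkx2-9, and gives rise to V3 interneurons, which express Sim1, and in the hindbrain to visceral motor neurons. The next domain dorsally is that of motor neuron progenitors, which express Olig2 and are kept apart from p3 by mutual repression between Olig2 and Nkx2-2.

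The sequences before the start sites of Nkx2-9, Nkx2-2 and Foxa2 are shown because the results turn on the levels of these 3 transcription factors. They come from RefSeq on GRCm38.p6, run 5′ to 3′ on the strand of the gene (minus for all 3) and end just before the start, or for Nkx2-2 before the 53 bases that the GENCODE annotation places in an exon. The RefSeq start of Nkx2-2 lies inside the longer gene of that annotation. Capitals mark exact matches, on either strand, to the SoxB core ACAAT or to the NK2 homeodomain core AAGTG, which reads CACTT on the other strand. No capitals overlap.
Nkx2-9, chr12:56613285-56613534: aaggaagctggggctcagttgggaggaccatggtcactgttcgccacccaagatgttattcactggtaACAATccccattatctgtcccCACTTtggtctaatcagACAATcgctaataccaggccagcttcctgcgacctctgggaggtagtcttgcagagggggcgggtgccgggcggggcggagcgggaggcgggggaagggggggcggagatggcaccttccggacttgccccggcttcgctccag
Nkx2-2, chr2:147186456-147186652: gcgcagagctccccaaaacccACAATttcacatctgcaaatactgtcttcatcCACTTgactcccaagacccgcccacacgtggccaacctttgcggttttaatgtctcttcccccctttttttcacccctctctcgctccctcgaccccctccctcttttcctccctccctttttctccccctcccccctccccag
Foxa2, chr2:148046970-148047219: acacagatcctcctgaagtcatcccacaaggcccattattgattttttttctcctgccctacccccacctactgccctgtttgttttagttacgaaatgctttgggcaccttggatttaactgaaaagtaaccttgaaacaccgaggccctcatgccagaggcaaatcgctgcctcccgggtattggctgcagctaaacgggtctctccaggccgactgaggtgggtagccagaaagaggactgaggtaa
The Nkx2-9 stretch held 2 SoxB cores and 1 NK2 core, the Nkx2-2 stretch 1 of each, and the Foxa2 stretch neither. RefSeq lists several starts for Foxa2, and the stretch shown precedes the most upstream of them. The window before another Foxa2 start held 1 NK2 core. Among the 250 bases before the start in all 32851 RefSeq promoters, 27.7% held a SoxB core and 40.7% an NK2 core. The GLI consensus GACCACCCA, through which hedgehog signalling acts on DNA, was found in none of the 9 windows listed for 7 of the 9 genes, and in 0.225% of all windows. The forkhead motif TGTTTAC occurred in 1 of these windows, that of Foxa1, against 3.17% of all windows. These matches describe letters in short windows only, and distal elements were not searched.

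Total counts ran from 19639303 to 32046466 per library. Setd5, the gene in the name of the group, stood at 22.2, 18.8 and 16.7 FPKM (counts scaled by exonic length and by library total) in control replicates 1, 2 and 3 and at 14.4, 13.5 and 12.9 FPKM in the Setd5sh replicates, so that the groups did not overlap, with Setd5sh lower, as for 2.14% of all genes tested. Setd5 did not pass in edgeR after adjustment (log2 difference -0.51, SE 0.16, 95% interval -0.894 to -0.135, unadjusted p = 0.0143, adjusted p = 0.995). The libraries numbered 2 stood apart in both groups by residual stem cell transcripts. The summed level of 7 pluripotency markers was 83.2 FPKM in control replicate 2 and 62.1 FPKM in Setd5sh replicate 2, and 9.11 to 27.7 FPKM in the other 4 libraries. By the quasi-likelihood test of edgeR, run on counts, 0 of the 12199 genes with a mean FPKM of at least 1 had an adjusted p under 0.05 (0.0%), while 149 had an unadjusted p under 0.05 (1.22%), 75 higher in Setd5sh (0.615%) and 74 lower (0.607%). DESeq2 and limma on log2(FPKM + 1) also called 0 genes, with 221 and 152 under an unadjusted p of 0.05. Without an expression filter edgeR called 73 of 29462 genes (0.248%).

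Nkx2-9 was by far the most abundant of the 9 genes, and its p3 partner Nkx2-2 was present at only a small fraction of its level. Nkx2-9 (ENSMUSG00000058669) lies on chromosome 12 from 56611389 to 56613284 on the minus strand of mm10. It stood at 121, 129 and 152 FPKM in control replicates 1, 2 and 3 and at 180, 157 and 154 FPKM in Setd5sh replicates 1, 2 and 3. These values placed it at rank 272 of 55400 genes by mean FPKM. All 3 Setd5sh libraries were above all 3 control libraries, but the gap between the nearest libraries was 1.51%, less than the counting error of 1.62% in either of them. The group means were 134 ± 16.2 FPKM in the controls and 164 ± 14.5 FPKM in Setd5sh (SD, n = 3 each). The log2 fold change was 0.28 (SE 0.15, 95% interval -0.07 to 0.64), with an edgeR adjusted p of 0.995 and an unadjusted p of 0.101.

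Nkx2-2 (ENSMUSG00000027434), the repressor that sets the p3 boundary against the motor neuron domain, lies on chromosome 2 from 147177546 to 147194243 on the minus strand. It was present at 2.69, 1.73 and 2.01 FPKM in the controls and at 3.56, 1.81 and 3.10 FPKM in Setd5sh. The groups overlapped, and the library numbered 2 was the lowest in each. Means were 2.14 ± 0.494 FPKM in the controls and 2.82 ± 0.907 FPKM in Setd5sh. The log2 fold change was 0.38 (SE 0.34, 95% interval -0.40 to 1.16), with an edgeR adjusted p of 0.995, and it ranged from 0.16 without Setd5sh replicate 1 to 0.66 without Setd5sh replicate 2. The antisense gene Nkx2-2os shares 278 exonic bases with Nkx2-2. It had 0 to 2 counts per library against 115 to 248 for Nkx2-2. Whether counting used strand was not stated in the sources used here, so reads of the shared bases cannot be assigned.

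Sim1 (ENSMUSG00000019913, chromosome 10, from 50894754 to 50989152, plus strand), the factor of postmitotic V3 neurons, was under FPKM 1 in every library. It had 5, 3 and 0 counts in the controls and 4, 2 and 3 counts in Setd5sh. A count of 0 in control replicate 3 allows a level of up to 0.0175 FPKM (3 counts). Summed over each group, its level was 0.0117 FPKM in control (95% exact Poisson interval 0.00507 to 0.0231) and 0.0153 FPKM in Setd5sh (0.00702 to 0.0291). These intervals cover counting error only. A difference in Sim1 was therefore not detectable at this depth. In these bulk samples, fewer cells of a type and less RNA per cell cannot be told apart, here and for all genes below.

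**Figure D1:**
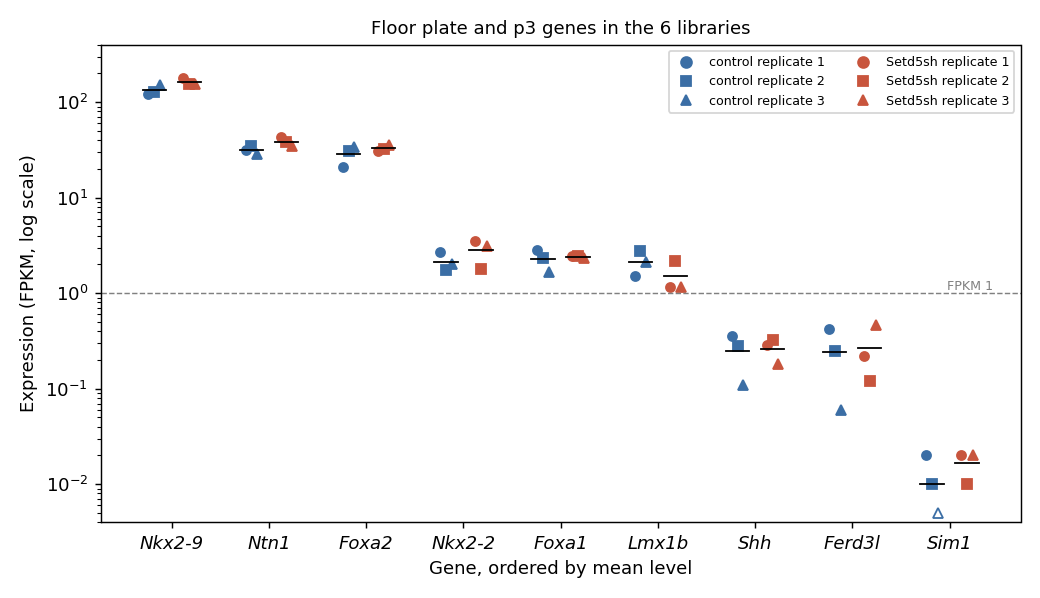
Expression in FPKM on a log scale of the 9 genes in each of the 6 libraries, with black bars for the group means and a dashed line at FPKM 1. The open triangle for Sim1 in control replicate 3 stands for a value of 0, drawn at the foot of the axis. Nkx2-9 sits above 100 FPKM in every library, and Shh, Ferd3l and Sim1 sit below 1 FPKM in every library.

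The proportions of the p3 genes to each other and to the motor neuron factor Olig2 were compared within each library, and the groups overlapped in every ratio. A ratio taken within a library cannot be moved by library scaling. Nkx2-9 stood at 45.0, 74.3 and 75.7 times the FPKM of Nkx2-2 in control replicates 1, 2 and 3. In the Setd5sh replicates the ratio was 50.7, 86.5 and 49.8. On the log2 scale the difference between groups was -0.07, from means of 5.98 ± 0.425 and 5.91 ± 0.452, and the exact two-sided permutation p was 1.0. Nkx2-2 was 0.0342, 0.0264 and 0.0262 of the Olig2 level in the controls and 0.0307, 0.0239 and 0.0346 of it in Setd5sh. The log2 difference of that ratio was 0.03 (exact permutation p = 0.9). Nkx2-9, in contrast, exceeded Olig2 in all 6 libraries, at 1.54 to 2.07 times its FPKM, a ratio added after the values were seen and given without a test. With 3 libraries against 3, the smallest p that the exact permutation test can give is 0.1.

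**Figure D2:**
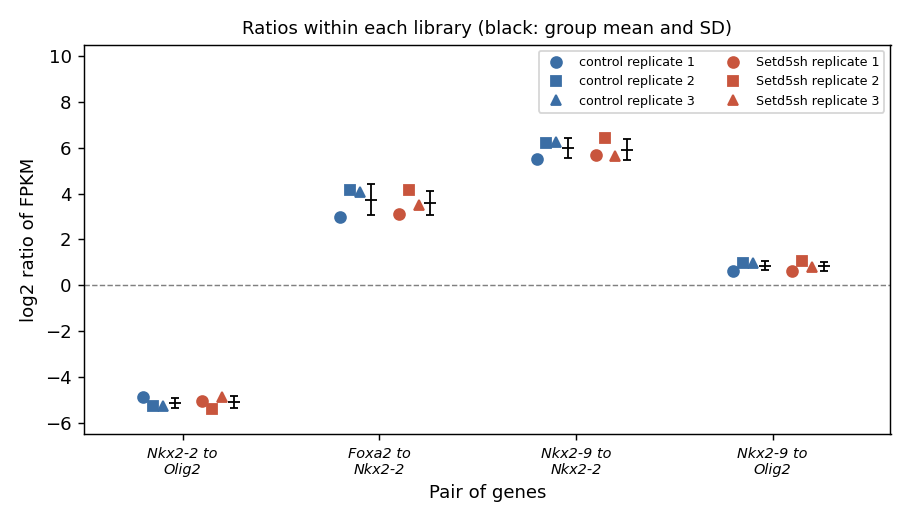
log2 ratios of FPKM between pairs of genes within each library, with group means and SD in black and a dashed line at equal levels. Control and Setd5sh points overlap for all 4 pairs, and only the ratio of Nkx2-2 to Olig2 lies below 0.

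Among the floor plate factors, Foxa2 was well expressed, Foxa1 and Lmx1b were just above FPKM 1, and Ferd3l was under it. Foxa2 (ENSMUSG00000037025, chromosome 2, from 148042877 to 148046969, minus strand), the forkhead factor that directs floor plate fate, stood at 21.1, 30.8 and 34.1 FPKM in the controls and at 31.2, 32.0 and 35.2 FPKM in Setd5sh. Control replicate 1 was the low library, and the remaining 5 lay between 30.8 and 35.2 FPKM. The log2 fold change was 0.19 (SE 0.19, 95% interval -0.24 to 0.62) with an edgeR adjusted p of 0.995, and it was 0.04 without control replicate 1. Foxa2 was 7.83 to 17.8 times as abundant per length as Nkx2-2, and the log2 difference of that ratio between groups was -0.14 (exact permutation p = 0.9).

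Foxa1 (ENSMUSG00000035451, chromosome 12, from 57540628 to 57546916, minus strand), a close relative of Foxa2, was present at 2.80, 2.34 and 1.65 FPKM in control. The Setd5sh libraries stood at 2.44, 2.44 and 2.36 FPKM, inside the control range. Its coefficient of variation was 25.6% in the controls and 1.9% in Setd5sh, each from 3 libraries, a difference that was not tested. The log2 fold change was 0.08 (SE 0.26), turning to -0.11 without control replicate 3, with an edgeR adjusted p of 0.995. Foxa2 exceeded Foxa1 by 7.52 to 20.7 times in FPKM across the 6 libraries.

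Lmx1b was the one gene of the 6 above the minimum with a negative difference. Lmx1b (ENSMUSG00000038765, chromosome 2, from 33560965 to 33640511, minus strand) is a LIM homeodomain factor of the floor plate at mid- and hindbrain levels, and it is also expressed in serotonergic and dorsal neurons. It stood at 1.52, 2.77 and 2.10 FPKM in the controls and at 1.17, 2.19 and 1.15 FPKM in Setd5sh. The groups overlapped, yet Setd5sh was lower within each same-numbered pair, by -0.38, -0.34 and -0.87 on the log2 scale in pairs 1, 2 and 3. The log2 fold change was -0.50 (SE 0.33, 95% interval -1.27 to 0.26) with an edgeR adjusted p of 0.995. With the replicate number as a block it was -0.53 (SE 0.20), with an unadjusted p of 0.0443 and an edgeR adjusted p of 0.938, when 2.69% of all genes had an unadjusted p under 0.05 in that fit. Leaving out single libraries moved the difference from -0.30 without control replicate 2 to -0.84 without Setd5sh replicate 2. In each group Lmx1b was highest in the library numbered 2, the one with the highest pluripotency marker level, and the part of that marker level in the result was not tested.

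**Figure D3:**
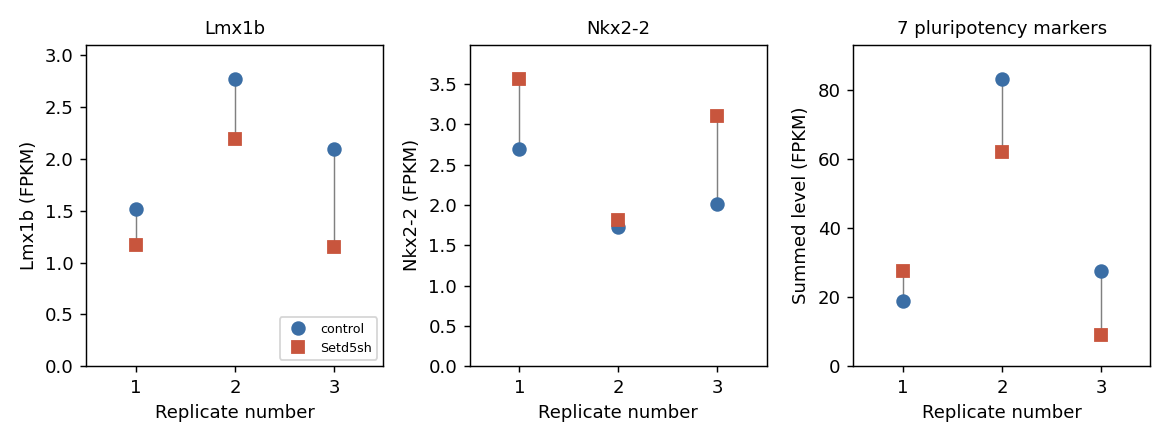
FPKM of Lmx1b, FPKM of Nkx2-2 and summed FPKM of 7 pluripotency markers by replicate number, with grey lines joining same-numbered libraries of the 2 groups. Lmx1b is lower in Setd5sh at all 3 numbers. The libraries numbered 2 are highest for Lmx1b and for the pluripotency markers and lowest for Nkx2-2.

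Ferd3l (ENSMUSG00000046518, chromosome 12, from 33928425 to 33929310, plus strand), a basic helix-loop-helix factor of the floor plate, was under FPKM 1 in every library. It had 12, 6 and 1 counts in the controls and 4, 3 and 8 counts in Setd5sh. The summed level was 0.271 FPKM in control (95% exact Poisson interval 0.163 to 0.424) and 0.249 FPKM in Setd5sh (0.139 to 0.41), so a difference was not detectable at this depth. The gene Gm40383 on the opposite strand shares 32 exonic bases with it and had 0 to 9 counts per library, against 1 to 12 for Ferd3l.

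The 2 secreted floor plate ligands stood far apart in level. Shh (ENSMUSG00000002633, chromosome 5, from 28456815 to 28467256, minus strand) was under FPKM 1 in every library, at 0.36, 0.28 and 0.11 FPKM in the controls and at 0.29, 0.32 and 0.18 FPKM in Setd5sh. Counts were 33, 22 and 6 in the controls and 17, 25 and 10 in Setd5sh, and the library numbered 3 was the lowest in each group. The groups overlapped, and the summed levels were 0.271 FPKM (95% exact Poisson interval 0.207 to 0.348) in the controls and 0.268 FPKM (0.201 to 0.352) in Setd5sh. Mean Foxa2 was 119.7 times mean Shh, with 58.5 to 310 times in single libraries. Antisense genes overlap Shh by up to 446 exonic bases, and 9530036O11Rik, the one of them in the table, had 0 to 3 counts per library. Without an expression filter, the edgeR log2 fold changes of Shh, Ferd3l and Sim1 were 0.12 (SE 0.60), 0.13 (SE 0.94) and 0.60 (SE 1.22), with adjusted p of 0.989, 0.989 and 0.955.

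Ntn1 (ENSMUSG00000020902, chromosome 11, from 68209364 to 68400823, minus strand) encodes netrin-1, which guides commissural axons and is made by the floor plate and by ventral progenitors. It stood at 31.4, 34.5 and 29.0 FPKM in the controls and at 43.5, 37.8 and 34.7 FPKM in Setd5sh. The groups did not overlap, but the nearest libraries were only 0.58% apart in FPKM, less than their counting errors of 1.53% and 1.30%. With the library scaling used for edgeR, the lowest Setd5sh library stood at -0.014 and the highest control library at -0.066. These are log2 deviations from the gene mean. Means were 31.6 ± 2.77 FPKM in the controls and 38.7 ± 4.46 FPKM in Setd5sh. The log2 fold change was 0.28 (SE 0.15, 95% interval -0.06 to 0.63), with an edgeR adjusted p of 0.995 and an unadjusted p of 0.0948. It was 0.18 without Setd5sh replicate 1.

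Ordered by mean FPKM, the genes fell into 5 steps. Nkx2-9, at a mean of 149 FPKM, was 4.24 times above Ntn1 and separated from it in all 6 libraries. Ntn1 and Foxa2, at 35.1 and 30.7 FPKM, overlapped in range and kept this order in 4 of 6 libraries. Nkx2-2, Foxa1 and Lmx1b, at 2.48, 2.34 and 1.82 FPKM, overlapped with each other and lay 12.37 times or more under Foxa2. Shh and Ferd3l, at 0.257 and 0.255 FPKM, also overlapped, and Sim1 was lowest at 0.0133 FPKM. Of the summed FPKM of the 9 genes, Nkx2-9 made up 66.5 ± 2.47% in the controls and 67.5 ± 1.05% in Setd5sh. Lmx1b made up 1.06 ± 0.28% in the controls and 0.63 ± 0.27% in Setd5sh (SD, n = 3 each).

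Of the 9 genes, 6 passed the expression minimum, and none of the 6 had an edgeR adjusted or unadjusted p under 0.05, against 0.0% and 1.22% of all genes tested. Positive log2 fold changes were found for 5 of the 6, against 42.6% of all 12199 genes tested, and the median of the 6 was 0.24 against -0.04 for all genes. Nkx2-9 and Ntn1 had all Setd5sh libraries above all control libraries, which 3.07% of all genes had. Nkx2-9, Nkx2-2, Foxa2 and Ntn1 were higher in Setd5sh in all 3 same-numbered pairs (12.8% of all genes), and Lmx1b was lower in all 3 (12.1%). Some of these pair differences were small. On the log2 scale they were 0.02 for Nkx2-9 in pair 3, 0.07 for Nkx2-2 in pair 2, and 0.06 and 0.05 for Foxa2 in pairs 2 and 3. The 95% intervals of all 6 genes included 0. They were narrowest for Ntn1 and Nkx2-9 and widest for Nkx2-2 and Lmx1b.

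**Figure D4:**
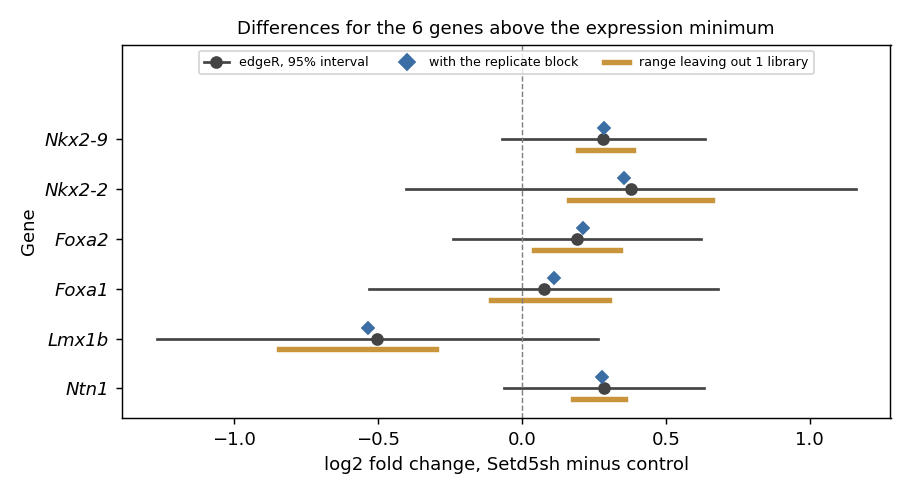
log2 fold changes of the 6 genes above the expression minimum, with edgeR 95% intervals, the value with the replicate number as a block (diamonds) and the range when single libraries were left out (ochre bars). All 6 intervals cross 0. Lmx1b alone lies below 0, and the ochre bar of Foxa1 crosses 0.

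Other genes of the ventral midline were examined from lists that did not use the 9 genes. Of 5 other p3 and V3 lineage genes, 2 passed the expression minimum, both with a positive difference (42.6% of all genes tested were positive). Arnt2, the partner with which Sim1 binds DNA, stood at 11.1, 10.1 and 10.4 FPKM in the controls and 13.0, 10.8 and 11.6 FPKM in Setd5sh, with overlapping groups and a log2 fold change of 0.16 (SE 0.15). Neurog3, Olig3 and Uncx were under FPKM 1. Of 11 other floor plate genes, 5 passed the minimum, 3 with a positive and 2 with a negative difference, at a median of 0.22. Slit3, an axon repellent, stood at 5.45, 4.69 and 6.17 FPKM in the controls and 8.76, 5.61 and 9.11 FPKM in Setd5sh. Spon1, the floor plate adhesion protein F-spondin, was below every control library in all 3 Setd5sh libraries, at 4.83, 4.66 and 3.62 FPKM against 6.29, 5.04 and 4.95 FPKM. Of all genes tested, 2.14% were so placed, but Spon1 was named for a small p among the 5 tested, which favours separated groups. Sulf2, an extracellular sulfatase, stood at 40.5 ± 6.66 FPKM in the controls and 47.2 ± 3.65 FPKM in Setd5sh. The floor plate genes Corin, Lmx1a and Foxj1 were under FPKM 1. None of these genes passed in edgeR.

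Targets and transducers of the hedgehog pathway were examined as well. Of 20 genes, 15 passed the minimum, 11 with a positive and 4 with a negative difference (42.6% of all genes tested were positive), at a median of 0.13, and none had an unadjusted p under 0.05. Ptch1 and Gli1, direct targets of the pathway, stood at 63.5 ± 12.3 and 31.8 ± 7.77 FPKM in the controls and at 61.8 ± 5.24 and 29.8 ± 2.60 FPKM in Setd5sh. Sufu, which restrains GLI factors, was at 10.8 ± 2.16 FPKM in the controls and 13.8 ± 1.15 FPKM in Setd5sh. Gli2, the main activator, was at 6.07 ± 0.535 and 6.95 ± 0.053 FPKM, and Scube3, which helps to release Sonic hedgehog, at 6.79 ± 0.544 and 8.08 ± 0.425 FPKM. All Setd5sh libraries were above all control libraries for these last 3 genes, against 3.07% of all genes tested. These 3 were named for the smallest p among the 15 tested, a choice that favours separated groups. The ligand genes Ihh and Dhh were under FPKM 1, as Shh was.

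The partners of Ntn1 and of the NK2 factors were present as well. Of 10 netrin receptor and netrin genes, 4 passed the minimum, 3 with a positive difference, at a median of 0.07. The receptors Unc5a and Neo1 stood at 23.9 ± 3.97 and 23.9 ± 2.50 FPKM in the controls and at 30.6 ± 7.39 and 25.9 ± 1.52 FPKM in Setd5sh, Unc5b was at 3.47 ± 1.21 and 3.12 ± 0.91 FPKM, and Dcc was under FPKM 1. Of 6 genes of the Groucho family, which includes corepressors of Nkx2-2, 4 passed, all with a positive difference, at a median of 0.09. Not every protein of this family is a corepressor, and Aes was among the 4 that passed. For both lists the share of all genes tested with a positive difference was 42.6%, at a median of -0.04. Tle3, Tle1 and Tle4 stood at 20.0 ± 0.525, 7.06 ± 0.268 and 9.39 ± 0.975 FPKM in the controls and at 22.1 ± 2.07, 7.71 ± 0.493 and 9.89 ± 2.04 FPKM in Setd5sh.

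Genes of the neighbouring dorsal domains were compared on the same scale. In the motor neuron progenitor list, 8 of 9 genes passed the minimum and 6 had a positive difference, at a median of 0.36. Among all genes tested, 42.6% had a positive difference. Olig2 stood at 73.6 ± 7.04 FPKM in the controls and 93.7 ± 20.4 FPKM in Setd5sh. Neurog2, Olig1 and Nkx6-1 had log2 fold changes of 0.64 (SE 0.19), 0.55 (SE 0.21) and 0.38 (SE 0.21). The other 2 tested genes of the list had a negative difference. Of these, Mnx1 had a log2 fold change of -0.61 (SE 0.47), at 14.9 ± 6.81 FPKM in the controls and 9.77 ± 6.44 FPKM in Setd5sh. In the p0 to p2 list, 3 of 11 genes passed, at a median of 0.07. Dbx1, the p0 factor, was at 5.48, 3.61 and 3.08 FPKM in the controls and 10.2, 5.52 and 5.97 FPKM in Setd5sh, and Irx3 and Irx5 were at 12.4 ± 2.15 and 1.30 ± 0.128 FPKM in the controls and 13.1 ± 3.23 and 1.17 ± 0.156 FPKM in Setd5sh. None of these genes passed in edgeR after adjustment. Unadjusted p under 0.05 in edgeR was reached by 2 of the 8 tested genes of the motor neuron list and 1 of the 3 of the p0 to p2 list, all higher in Setd5sh, as 0.615% of all genes tested were.

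Several of the 9 genes are also expressed outside the ventral spinal cord, so markers of other cell types were listed. The hindbrain motor factor Phox2a stood at 5.71 ± 1.95 FPKM in the controls and 7.07 ± 1.68 FPKM in Setd5sh. Serotonergic Fev had at most 1 count in any library. Of 10 endoderm markers, 7 had a mean under FPKM 1, and their summed level was 7.96 to 8.74 FPKM in the controls and 6.0 to 8.9 FPKM in Setd5sh. Among them, Sox17 stood at 0.853 ± 0.122 and 1.16 ± 0.271 FPKM. All 6 notochord and node markers had a mean under FPKM 1, although Nodal reached 2.44 FPKM in control replicate 2. Noto had 0 counts in all 6 libraries, which allows 0.0584 to 0.0954 FPKM per library (3 counts). The notochord and node markers had summed levels of 1.68 to 4.19 FPKM in the controls and 1.56 to 3.16 FPKM in Setd5sh. In each group the highest sum was that of the library numbered 2, where Nodal stood at 2.44 FPKM (control) and 1.52 FPKM (Setd5sh). Those libraries also had the highest pluripotency marker levels, and the part of residual stem cells in these sums was not tested. Of 9 roof plate and dorsal markers, 7 had a mean under FPKM 1. Their summed level was 4.17 to 4.97 FPKM in the controls and 7.34 to 10.4 FPKM in Setd5sh, without overlap. Of single genes tested, 3.07% had all Setd5sh libraries above all control libraries. Msx1 was at 2.01 ± 0.517 and 4.48 ± 1.10 FPKM, and Wnt1 at 1.91 ± 0.15 and 3.44 ± 0.857 FPKM. Both, the 2 tested genes of that list, had an unadjusted p under 0.05 in edgeR (0.00538 and 0.0146, adjusted p = 0.995 each). Of all genes tested, 0.615% were higher in Setd5sh at that threshold. Lmx1b, which dorsal cells also express, was on average lower in Setd5sh. All 5 ventral forebrain markers had a mean under FPKM 1, although Nkx2-1 reached 1.06 FPKM in control replicate 3 and 1.16 FPKM in Setd5sh replicate 3, and 6 fibroblast markers summed to 6.47 to 9.94 FPKM in the controls and 8.8 to 11.3 FPKM in Setd5sh. The part of these cells in the levels of the 9 genes was not tested.

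The genes whose profiles over the 6 libraries were nearest to those of the 3 most abundant members were sought. The measure was the root mean square difference in centred log2 CPM (counts scaled by library size and TMM factor, not by gene length). Polr1a and Ddx39 were among the nearest to Nkx2-9, at 0.0373 and 0.0450, when Nkx2-9 itself varied by 0.191 around its mean. Igdcc3, Scube3 and Zfp503 were nearest to Ntn1, at 0.0515, 0.0558 and 0.0579, and Slc9a3r1, Nploc4 and Sec61a1 to Foxa2, at 0.0115, 0.0254 and 0.0257. The genes just named are the nearest of all genes tested, so the members' distances are read against the share of genes that lay nearer. From Nkx2-9, Ntn1 was at 0.161, with 11.8% of genes nearer, and seen from Ntn1 the same distance had 4.81% of genes nearer. Foxa2, also measured from Nkx2-9, was at 0.186, with 18.3% nearer. A gene with no variation at all would lie at 0.191. Still farther from Nkx2-9 were Foxa1 at 0.338, Nkx2-2 at 0.356 and Lmx1b at 0.583, with 55.9%, 59.1% and 85.0% nearer.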

How the data were processed

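The authors deposited raw read counts and FPKM values for 55400 Ensembl genes, per the file headers. Per the submitters' processing notes, the tools were SAMtools, HISAT2, DESeq2 and HTSeq and the build mm10, without roles or versions. The deposited FPKM values equal counts scaled by exonic length and column total, to within 0.005. Symbols and positions came from GENCODE M21, which matched 55140 identifiers. Genes with a mean FPKM of at least 1 (12199) were tested with edgeR 4.0.16 (R 4.3.3) by quasi-likelihood, TMM scaling and Benjamini-Hochberg adjustment, threshold 0.05, two-sided. DESeq2 1.42.0 and limma 3.58.1 were alternatives, and figures used matplotlib 3.10.9. Within-library ratios were tested by exact permutation. Beside the 9 genes, the text names Setd5, Olig2, Ptch1 and Gli1, up to 3 tested genes of smallest p per list (highest FPKM for other cell types) and nearest profiles. A few genes that this rule names are not reported here. Mnx1 and the genes named only as under FPKM 1 or at 0 were added after their values were seen. The members and lists were chosen with earlier results of these data known. Same-numbered libraries deviated together (correlations 0.185, 0.69 and 0.127), so the numbers were taken to pair under a threshold of 0.1, from the data and not the labels. Control replicate 1 also correlated with Setd5sh replicate 3 (0.191). In simulated counts for this comparison over 12199 genes, edgeR called 92% of the genes changed 4-fold, 39% of those changed 2-fold and 10 unchanged genes. The simulated counts were drawn independently for each gene and library, without the shared deviations of the real libraries. These shares may therefore not hold for the real data.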

Additional observations from a re-analysis of the deposited data

How the results depend on the processing

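Counts of 109 or more per library support the values of the 6 genes above the minimum, whereas Sim1, Ferd3l and Shh rest on 0 to 33. Across 15 alternatives for each of these 6 genes, 0 of 90 values passed and 1 turned in sign, that of Foxa1. edgeR called 0 genes in every alternative except the fit with no filter, which called 73. This fit also tests 17263 more genes and the cause was not tested. Leaving out single libraries called 0 to 0 genes, and so did leaving out both libraries numbered 2, added after seeing the data. With the replicate number as a block edgeR again called 0 genes, and it changed no call. The block gave 0.03, -0.14 and -0.07 for the log2 ratios of Nkx2-2 to Olig2, Foxa2 to Nkx2-2 and Nkx2-9 to Nkx2-2 (exact sign-flip p = 1.0, 0.75 and 1.0, smallest possible 0.25). With 1 FPKM added the first and last were -0.062 and 0.028. Leaving out single libraries, the 3 differences ran from -0.083 to 0.184, -0.53 to 0.09 and -0.332 to 0.066, so each took both signs. Log2 fold changes also turned for Ptch1 (0.027 with no filter, and -0.17 to 0.16 without single libraries), Gli1 (-0.26 to 0.15), Foxa1 (-0.11 to 0.30), Irx3 (-0.088 to 0.23), Unc5b (-0.38 to 0.12) and Tle4 (-0.10 to 0.19), and the cause was not tested.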

Other observations

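Nkx2-2 and Foxa2 lie 0.85 Mb apart on chromosome 2, and Nkx2-9 and Foxa1 lie 0.93 Mb apart on chromosome 12, so each of these intervals joins an NK2 gene to a forkhead gene. The abundant member was the forkhead gene on chromosome 2 (Foxa2, 30.7 FPKM against 2.48 FPKM for Nkx2-2) and the NK2 gene on chromosome 12 (Nkx2-9, 149 FPKM against 2.34 FPKM for Foxa1). Between Nkx2-2 and Foxa2 the annotation places 1 protein-coding gene, Pax1, at a mean of 0.052 FPKM. Between Nkx2-9 and Foxa1 it places 4, of which Pax9 stood at 0.147 FPKM, Mipol1 at 1.21 FPKM, Slc25a21 at 1.37 FPKM and Prps1l3 at 26.1 FPKM. Prps1l3 is a close relative of Prps1, and reads that fit both cannot be assigned. These genes were chosen by position after the values of the 9 genes were seen, and no test was made.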
